A study of Mus musculus with 2 samples.

Results

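The clustered protocadherins are cell-surface proteins of the cadherin superfamily, encoded by 3 neighbouring gene clusters named alpha, beta and gamma. Members were the protein-coding genes of both deposited gene tables whose symbol is Pcdha, Pcdhb, Pcdhg and a subgroup letter or number. This gave 57 members, 14 in the alpha, 22 in the beta and 21 in the gamma cluster, among 43346 genes, of which 21474 were protein-coding. All 57 lie on the plus strand of mouse chromosome 18 (mm10). The alpha cluster spans positions 36930184 to 37187661, the beta cluster 37264938 to 37524479 and the gamma cluster 37661793 to 37841873.

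In the alpha and gamma clusters, each member has its own promoter and its own large variable exon, which encodes the extracellular, transmembrane and first intracellular parts of the protein. That exon is spliced to 3 constant exons shared by the whole cluster, so that proteins of a cluster differ outside the cell and share an intracellular end. Beta members carry no constant exons, and each is encoded by a single large exon. Single neurons are known to use a random few of the alternate promoters, through DNA methylation and through looping between promoters and enhancers by CTCF and cohesin. The C-type genes at the 3′ ends of the alpha and gamma clusters (Pcdhac1, Pcdhac2, Pcdhgc3, Pcdhgc4 and Pcdhgc5) are regulated apart from the alternate genes. The proteins bind others of the same kind across cell contacts, and the clusters are known for the self-avoidance of neurites and the survival of neurons.

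Both libraries were made from forebrain of healthy mice of strain B6NTac;B6NCrl/Lap at age 0 days, males and females pooled, and carried no other genotype or treatment. Replicate 1 came from 15 mice and replicate 2 from pooled mice whose number the labels leave out. The labels call them independent tissue isolates, although both carry the same donor identifier. They form 1 group of 2 libraries, so no condition is compared, and an SD here covers the spread between these samples, which may be technical, and a p-value covers counting error alone.

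Total RNA, size-selected to exclude short molecules, was depleted of ribosomal RNA and sequenced in stranded pairs. Depth was 62516003 and 65912060 expected counts, that is, reads as apportioned among genes. The forebrain markers Lhx2, Emx1, Emx2, Dlx1, Dlx2 and Tbr1 were at 1 coding TPM or more in both libraries. Of the hindbrain and spinal cord markers, Hoxa4, Hoxb4 and Hoxc6 had 0 reads in both, and Egr2 alone was at 1 coding TPM or more in both. Coding TPM is TPM (transcripts per length, scaled to a fixed total) rescaled to a sum of 1000000 over protein-coding genes in each library. Deposited TPM has 2 decimals, which makes the lowest levels coarse.

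Clustered protocadherin RNA was found across all 3 clusters, with the gamma cluster highest. The members held 64042 reads in replicate 1 and 85807 in replicate 2. That was 0.102% of all counts in replicate 1 (95% Wilson interval 0.102 to 0.103%) and 0.130% in replicate 2 (0.129 to 0.131%). Such intervals cover counting error only. Summed over members, the level was 692 coding TPM in replicate 1 and 825 in replicate 2, a mean of 758 ± 93.8 (SD, n = 2). In bulk tissue, fewer cells that use a member and less of its RNA per cell cannot be told apart.

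Of the 57 members, 56 (98.2%) were at 1 coding TPM or more in both libraries, against 63.3% of all protein-coding genes (13596 of 21474). Pcdhb1, the first gene of the beta cluster, was the exception. It had 0 reads in replicate 1, a count that allows up to 3 reads, and 1 read in replicate 2. On TPM as deposited, which includes short noncoding RNA in its total, 32 members reached 1.

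Each cluster held nearly the same share of the members' summed coding TPM in both libraries. The gamma cluster held 65.5% in each (65.5% ± 0.0121, SD, n = 2). Its sum was 454 coding TPM in replicate 1 and 540.5 in replicate 2. The beta cluster held 21.4 and 20.9% (21.1% ± 0.394, SD, n = 2). The alpha cluster, with 14 members, held 13.0 and 13.6% (13.3% ± 0.406, SD, n = 2). The differences in share between clusters were thus many times the spread between libraries. Among single members, the median level was 14.0 coding TPM in the gamma, 7.25 in the alpha and 6.34 in the beta cluster. By library, the medians were 12.7 and 14.9 in gamma, 6.31 and 7.60 in alpha and 5.35 and 7.26 in beta. The alpha and beta medians thus overlapped across libraries.

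**Figure D1:**
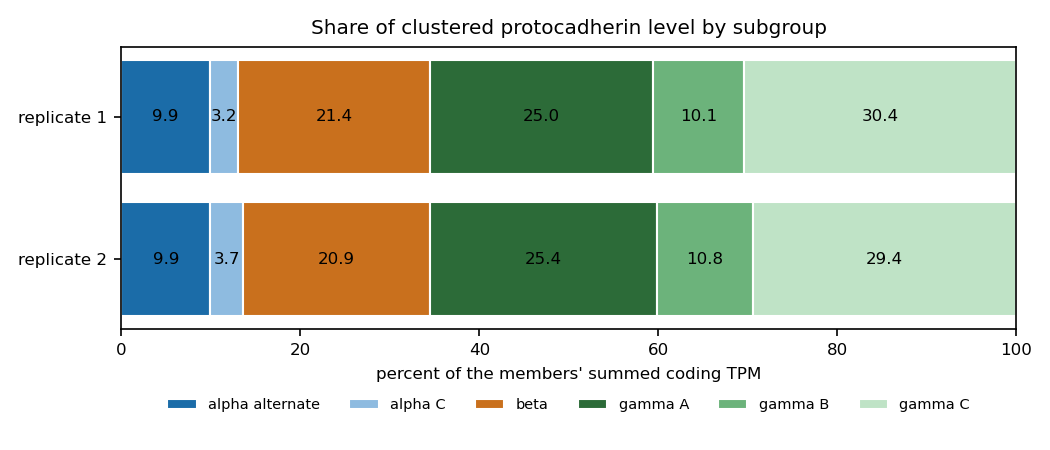
Share of the members' summed coding TPM, in percent, held by the 12 alternate alpha genes, the 2 alpha C-type genes, the 22 beta genes and the gamma A, B and C genes. Each bar is 1 library, and the gamma C genes take 30.4% in replicate 1 and 29.4% in replicate 2.

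The C-type genes held 33.6 and 33.1% of the summed level in the 2 libraries, nearly all of it in Pcdhgc3, Pcdhgc4 and Pcdhac2. Pcdhgc4 (ENSMUSG00000023036.10, chromosome 18, 37815079 to 37841873) is known for its part in the survival of neurons and needs another protocadherin to reach the cell surface. Its level was 101 coding TPM in replicate 1 and 124 in replicate 2, from 7963 reads with a posterior SD of 120 and 12661 reads with a posterior SD of 93.3. Posterior SD is the deposited uncertainty of how many reads belong to a gene. Pcdhgc3 (ENSMUSG00000102918.1, 37806364 to 37841873) is known to bind Axin1 through its own part of the intracellular region and to act on dendrite growth. Its level was 102 and 113 coding TPM, from 9624 ± 69.4 and 11644 ± 70.4 reads (posterior SD). These 2 genes were the highest of all members, at the 92.1st and 91.7th percentile of protein-coding genes.

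The order of Pcdhgc4 and Pcdhgc3 was not the same in both libraries. Their ratio in coding TPM was 0.988 in replicate 1 and 1.10 in replicate 2, and in counts 0.827 and 1.09. Together they held 29.3 and 28.7% of the members' summed level. Pcdhgc5, the last gene of the gamma cluster, lay far below both at 7.38 and 5.72 coding TPM (558 and 655 reads). Pcdhgc3 was 13.8 and 19.7 times Pcdhgc5 in coding TPM, and Pcdhgc4 13.7 and 21.7 times.

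The pair of alpha C-type genes also differed widely. Pcdhac2 (ENSMUSG00000102697.1, 37143503 to 37187657), known for the tiling of serotonergic axons, stood at 20.3 and 28.1 coding TPM, from 2519 ± 25.2 and 3800 ± 31.1 reads (posterior SD). Pcdhac1 stood at 1.62 and 2.18 coding TPM, from 184 and 272 reads. Pcdhac2 was thus 12.5 and 12.9 times Pcdhac1, and the pair did not overlap across libraries. Pcdhac2 ranked 5 and Pcdhac1 ranked 54 of the 57 members by mean level.

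Among the other 12 alpha genes, which are the alternate ones, no member reached the level of Pcdhac2. GENCODE M21, from which symbols were taken, gives the symbol Pcdha11 to 2 of them. RefSeq (GRCm38.p6) names the gene at the place of ENSMUSG00000007440 Pcdha10 and the other, ENSMUSG00000102206, Pcdha11, so both are given here with their identifiers. Pcdha4 was the highest on average at 8.34 and 11.7 coding TPM, from 758 ± 36.7 and 890 ± 28.0 reads (posterior SD). In replicate 1, Pcdha11 (ENSMUSG00000102206) was above it at 8.71. In counts Pcdha4 lay below Pcdha5, Pcdha6 and Pcdha9 in both libraries, and its effective length, by which TPM is scaled, was 4150 and 3175 nt. By mean coding TPM, Pcdha5 followed at 7.53 and 10.2 coding TPM (818 ± 17.9 and 1212 ± 22.9 reads), and Pcdha6 at 7.97 and 9.03 (787 ± 16.0 and 1021 ± 19.6 reads). The ranges of these 3 genes over the libraries overlapped.

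The 2 lowest alternate alpha genes were well apart from those. Pcdha1, the first gene of the cluster, was at 1.18 and 1.59 coding TPM (131 ± 7.70 and 183 ± 8.94 reads, posterior SD). Pcdha8 was at 1.62 and 2.09 coding TPM (182 ± 8.56 and 255 ± 10.4 reads). The highest alternate alpha gene was 7.38 times the lowest in replicate 1, where it was Pcdha11 (ENSMUSG00000102206), and 7.34 times in replicate 2, where it was Pcdha4. Pcdha11 (ENSMUSG00000007440) came next, at 2.95 and 2.63 coding TPM, while its neighbour of the same symbol stood at 8.71 and 7.35.

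In the beta cluster, apart from Pcdhb1, levels ran from 1.70 to 15.8 coding TPM in replicate 1 and from 2.50 to 16.8 in replicate 2. Pcdhb17 was highest at 15.8 and 16.8 coding TPM, from 1527 and 1780 reads. Pcdhb22, the last gene of the cluster, followed at 12.6 and 16.2 (1141 and 1641 reads, posterior SD 1.54 and 1.57), and Pcdhb7 at 12.7 and 14.4 (907 and 1124 reads). Pcdhb17 was above Pcdhb7 in both libraries, whereas Pcdhb22 and Pcdhb7 changed order. Among members with reads in both libraries, Pcdhb3 was lowest at 1.70 and 2.50 coding TPM (130 and 211 reads). The posterior SD was 0 for Pcdhb17, Pcdhb7 and Pcdhb3 in both libraries.

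The gamma A and gamma B genes alternate along the cluster and differ in the sequence of their variable exons. The 12 gamma A genes held 25.0 and 25.4% of the summed level, and the 6 gamma B members 10.1 and 10.8%. The median level was 15.3 coding TPM for gamma A and 11.2 for gamma B. Pcdhga11 was the highest gamma A gene at 28.4 and 30.1 coding TPM, from 2816 ± 37.5 and 3245 ± 38.9 reads (posterior SD). Pcdhga3 was at 17.4 and 23.1 (1707 ± 30.9 and 2468 ± 33.7 reads), and Pcdhga12 at 18.4 and 18.7 (1922 ± 29.8 and 2093 ± 30.4 reads). Pcdhga11 was above the other two in both libraries, and those 2 changed order.

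At the low end of gamma A, Pcdhga9 was at 6.94 and 12.1 coding TPM (559 ± 16.2 and 1114 ± 22.0 reads, posterior SD) and Pcdhga5 at 7.97 and 12.1 (770 ± 19.9 and 1277 ± 25.1 reads). Among gamma B genes, Pcdhgb6 was highest at 22.7 and 28.9 coding TPM (2211 ± 34.1 and 3066 ± 37.9 reads). Pcdhgb6 stood apart from the next gamma B gene, Pcdhgb7, at 12.6 and 13.7 (1237 ± 25.1 and 1465 ± 27.0 reads), and from Pcdhgb1, at 10.5 and 12.2 (1019 ± 22.5 and 1287 ± 25.2 reads). Pcdhgb5 was lowest in both libraries, at 7.09 and 8.22 coding TPM (682 ± 18.3 and 862 ± 19.6 reads), with Pcdhgb4 the next lowest by mean, at 9.01 and 11.99 (790 ± 23.1 and 1196 ± 25.5 reads). The 18 alternate gamma genes spread less than the alternate alpha genes, with the highest 4.10 and 3.66 times the lowest, and that difference was not tested.

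**Figure D2:**
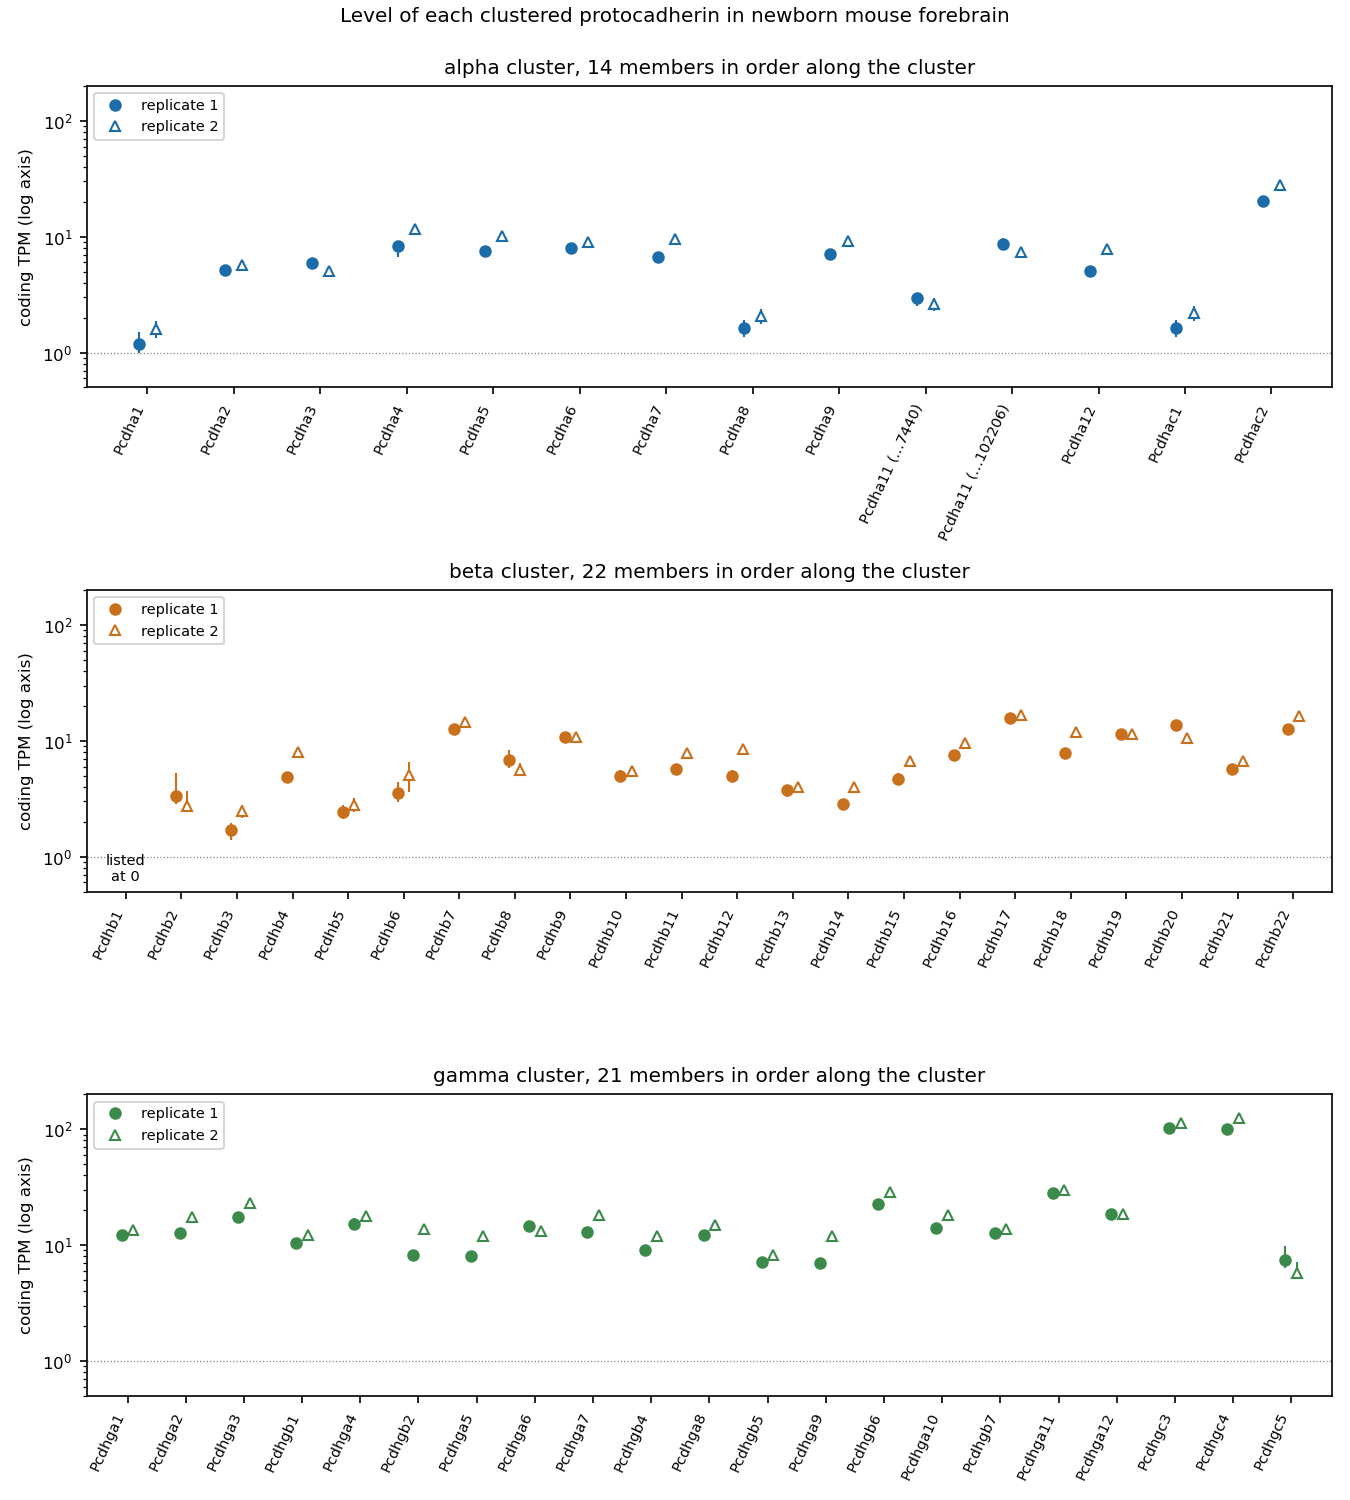
Level of each member in coding TPM (log axis) in replicate 1 (filled circles) and replicate 2 (open triangles), in order along each cluster, with the deposited interval of TPM as a vertical line. Pcdhgc3 and Pcdhgc4 lie near 100 coding TPM, most other members between 2 and 30, and Pcdhb1 is listed at 0.

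The evenness of use across the tissue was summed up by the inverse Simpson index, the number of equally used members that would give the same spread of levels. It was 17.9 in replicate 1 and 18.4 in replicate 2 for the 57 members. Without the 5 C-type genes it was 37.3 and 38.2 of 52. Within clusters it was 9.29 and 8.51 of 14 for alpha, 15.8 and 16.6 of 22 for beta and 8.41 and 8.69 of 21 for gamma. The low value of the gamma cluster came with the high share of Pcdhgc3 and Pcdhgc4. These are values of pooled tissue and say nothing of how many members a single cell uses.

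Ranked by mean coding TPM, the members formed a near-continuous series below the top. The deposited TPM intervals, whose level is not stated in the file headers, were apart in both libraries for 3 of 56 pairs of neighbours in rank. These were Pcdhgc3 over Pcdhga11, Pcdhac2 over Pcdhga3, and Pcdha1 over Pcdhb1. The other 53 pairs of neighbours were not apart in both libraries. Of the 56 pairs, 16 were in the same order in both libraries. Over the whole range of levels the Spearman rho between the libraries was 0.946 for the 57 members, which share annotation and transcript lengths between the libraries.

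Levels followed position in the beta cluster more than in the others. Over the 22 beta genes, the rank of level rose with order from the 5′ to the 3′ end, with a rho of 0.649 in replicate 1 and 0.640 in replicate 2. The first 11 beta genes had a median of 4.87 and 5.49 coding TPM and the last 11 a median of 7.53 and 9.53. Annotated length rose along the cluster too (rho 0.607), while level and length had a rho of 0.317 and 0.399. Level did not follow order closely among the 12 alternate alpha genes (rho 0.126 and 0.0979) or the 18 alternate gamma genes (rho 0.239 and 0.249). These correlations describe members of 1 locus, and no test was made of the difference between clusters.

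How well single isoforms can be told apart depends on what they share. The 3 constant exons of the alpha cluster lie at 37156155 to 37156213 (59 nt), 37159265 to 37159353 (89 nt) and 37184946 to 37187657 (2712 nt). Those of the gamma cluster lie at 37825021 to 37825079 (59 nt), 37833265 to 37833353 (89 nt) and 37839903 to 37841873 (1971 nt). The constant part made up a median of 53.5% of the full-length transcript of an alpha member (48.6 to 54.9%) and 44.8% of that of a gamma member (41.7 to 45.5%). No beta member holds either set.

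Each member's transcript was searched for windows of 101 nt, the read length, that also occur in another member. A median of 55.1% of windows were shared in alpha members, 44.1% in gamma members and 0.186% in beta members. Outside the constant exons, shared windows were found in 12 of 14 alpha members, with a median of 5.12% and the highest value, 12.8%, in Pcdha11 (ENSMUSG00000102206). Outside them, 8 of 21 gamma members held any. Pcdhga4 had the most at 37.4%, mainly shared with transcripts of Pcdhgb1. In the beta cluster 13 of 22 members held any, led by Pcdhb21 (7.71%) and Pcdhb22 (5.45%), which share with each other.

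**Figure D3:**
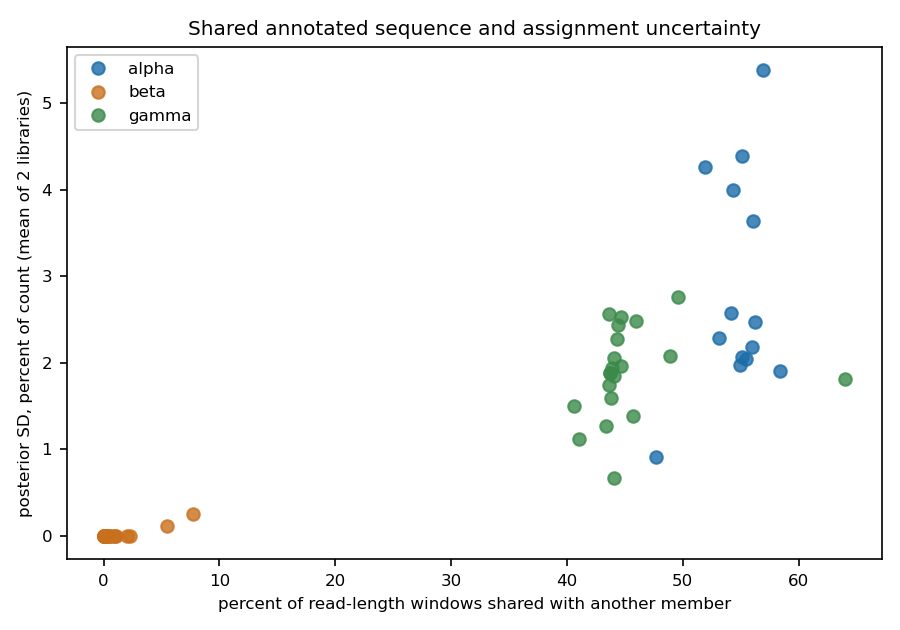
Percent of a member's windows of 101 nt that occur in another member (x axis) and its posterior SD as a percent of its count, averaged over the 2 libraries (y axis), for 56 members. Beta members lie near 0 on both axes, and all alpha and gamma members lie above 40% shared.

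The deposited posterior SD likewise set the beta cluster apart from the alpha and gamma clusters. As a percent of the count, its median was 2.50 and 2.27% over alpha members, with ranges of 1.00 to 5.86% and 0.819 to 4.88%. It was 2.03 and 1.79% over gamma members. Of the 21 beta members averaging 10 counts or more, 19 had a posterior SD of 0 in each library, and the other two were Pcdhb21 and Pcdhb22. Over 11506 other protein-coding genes in the members' range of counts, the median was also 0, with 91.7 and 91.6% of genes at 0.

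Uncertainty of assignment mostly stayed below counting error, taken as the square root of the count. The median ratio of posterior SD to that square root was 0.627 and 0.640 in alpha and 0.720 and 0.702 in gamma. It was above 1 for Pcdha4 and Pcdhgc4 in replicate 1, and for no member in replicate 2. Both genes have 3 annotated transcripts, but so do Pcdha6 and Pcdhgc3, which were not above 1. Nor were Pcdhgc5, with 4 transcripts, and Pcdha11 (ENSMUSG00000102206), with 5. The window search above covered members only. Gm42416, a gene described below that is not a member, holds 2410 nt of the Pcdha4 variable exon. Of its 2756 windows, 95 occur in no member, and its own posterior SD was 27.6 and 20.0 reads. Whether this bears on the posterior SD of Pcdha4 was not tested.

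**Figure D4:**
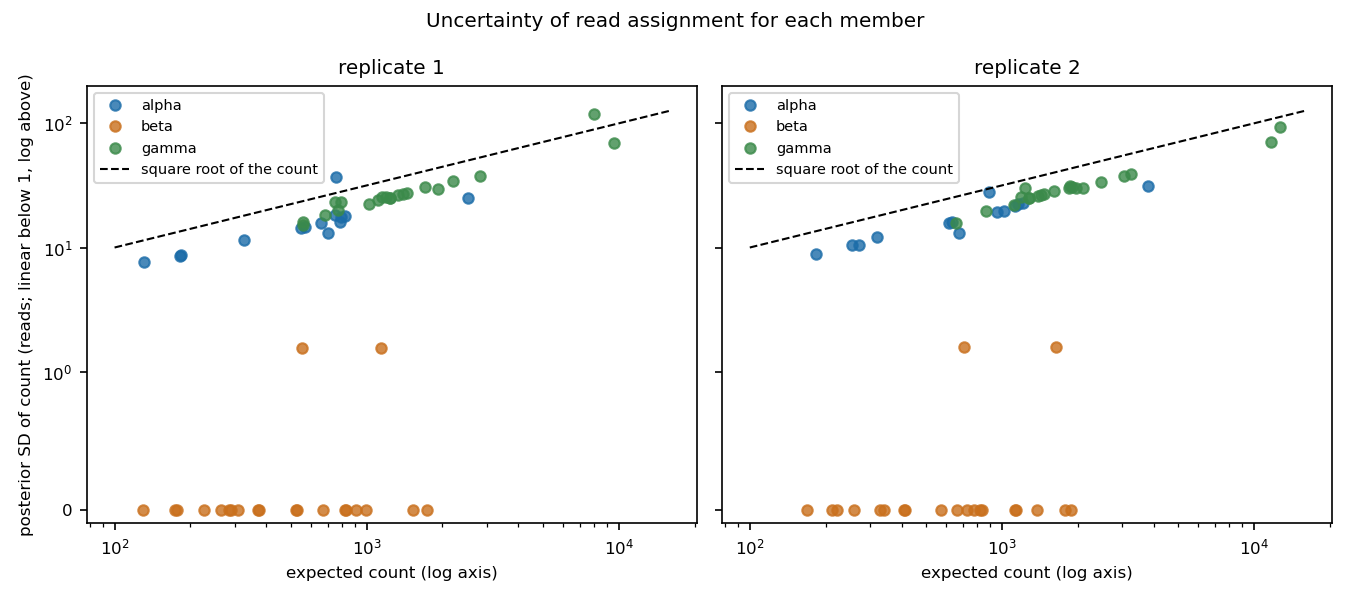
Posterior SD of each member's count in reads (y axis, linear below 1 and log above) against its expected count (log axis), with the square root of the count as a dashed line, 1 panel per library. Alpha and gamma members run below and along the line, with Pcdha4 and Pcdhgc4 above it in replicate 1, and 19 beta members lie at 0.

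Most of the level of the alpha and gamma clusters was assigned to transcripts that reach the constant exons. These held 90.0 and 87.5% of alpha TPM and 89.6 and 89.8% of gamma TPM. Transcripts annotated as retaining an intron, none of which holds the constant exons in full, held 9.98 and 12.5% of alpha and 7.86 and 8.92% of gamma TPM. Among members with more than 1 transcript, the leading transcript was the same in both libraries for 12 of 12 gamma genes, 3 of 4 beta genes and 2 of 5 alpha genes.

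Shares of single transcripts differed between the libraries in several members. In Pcdhgc4, the full-length form of 5024 nt held 52.9 and 77.0% of the gene's TPM and a shorter coding form of 2272 nt 32.9 and 7.45%. In Pcdhgc3, the full-length form held 89.1 and 90.3%. In Pcdha4, a single-exon retained-intron transcript held 38.4% in replicate 1 and 76.8% in replicate 2. The first-listed transcript of Pcdha1 held 72.2 and 32.1%, that of Pcdha2 63.2 and 39.9%, and that of Pcdha6 89.8 and 56.6%. These shares are deposited values with no test.

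Such shares enter the level of a gene through its effective length. The log2 ratio of the libraries, replicate 2 over replicate 1, was above that in counts by a median of 0.15 when taken in coding TPM. Most members thus had a larger ratio in coding TPM than in counts. That offset was not particular to members with several transcripts. It was 0.15 for Pcdha5, with 1 transcript and effective lengths of 4958 and 4937 nt. Coding TPM is scaled to the protein-coding sum, whereas the counts were scaled by another method (TMM). For 4 of 56 members the difference between both ratios lay more than 0.25 from that median. All 4 have more than 1 transcript. Pcdha4 had a log2 ratio, replicate 2 over replicate 1, of 0.48 in coding TPM and -0.05 in counts. For Pcdhb6 the pair was 0.52 and -0.09, for Pcdhb8 -0.30 and -0.13, and for Pcdhgc5 -0.37 and -0.05.

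Differences between the 2 libraries were then tested, since they set the precision of every value above. The reads of each of 17536 genes, those averaging 10 counts or more, were compared by an exact binomial test (two-sided, Benjamini-Hochberg adjusted over all of them), which compares these libraries and not conditions. Genes that differed 2-fold or more with an adjusted p under 0.05 were called. Of the 56 members tested, 0 were called, against 10.4% of all genes. Genes of low count made up much of that background, since 2.78% of genes averaging 100 counts or more were called, and every member tested averaged 157 or more. With the posterior SD in the error, 0 members were called, against 10.3% of all genes. No member differed 2-fold.

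At any fold, 33 of 56 members (58.9%) had an adjusted p under 0.05, against 65.4% of all genes. Of these, 26 were higher in replicate 2, where 32.2% of all genes were, and 7 were lower, where 33.2% of all genes were. With library totals in place of TMM sizes the split was 40 and 1, because that scaling moved the median log2 ratio of all genes to 0.20. The median log2 ratio of members was 0.17, against -0.003 over all genes tested. It was 0.20 in the alpha, 0.05 in the beta and 0.19 in the gamma cluster, and the difference between clusters was not tested.

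The 3 members with the largest ratios were all higher in replicate 2. Pcdhga9 had 559 and 1114 reads, a log2 ratio of 0.71 (SE 0.0901, adjusted p = 1.38e-21 by the exact binomial test). Pcdhb12 had 309 and 572 reads, a log2 ratio of 0.61 (SE 0.102, adjusted p = 4.99e-09), and Pcdhb4 had 371 and 665 reads, 0.56 (SE 0.0934, adjusted p = 4.28e-09). In the other direction Pcdhb20, singled out after its values were seen, had 991 and 837 reads, a log2 ratio of -0.52 (SE 0.0677, adjusted p = 6.67e-14). Members past 1.5-fold numbered 2 of 56 (3.57%), Pcdhga9 and Pcdhb12, against 9.90% of other protein-coding genes in the same range of counts.

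**Figure D5:**
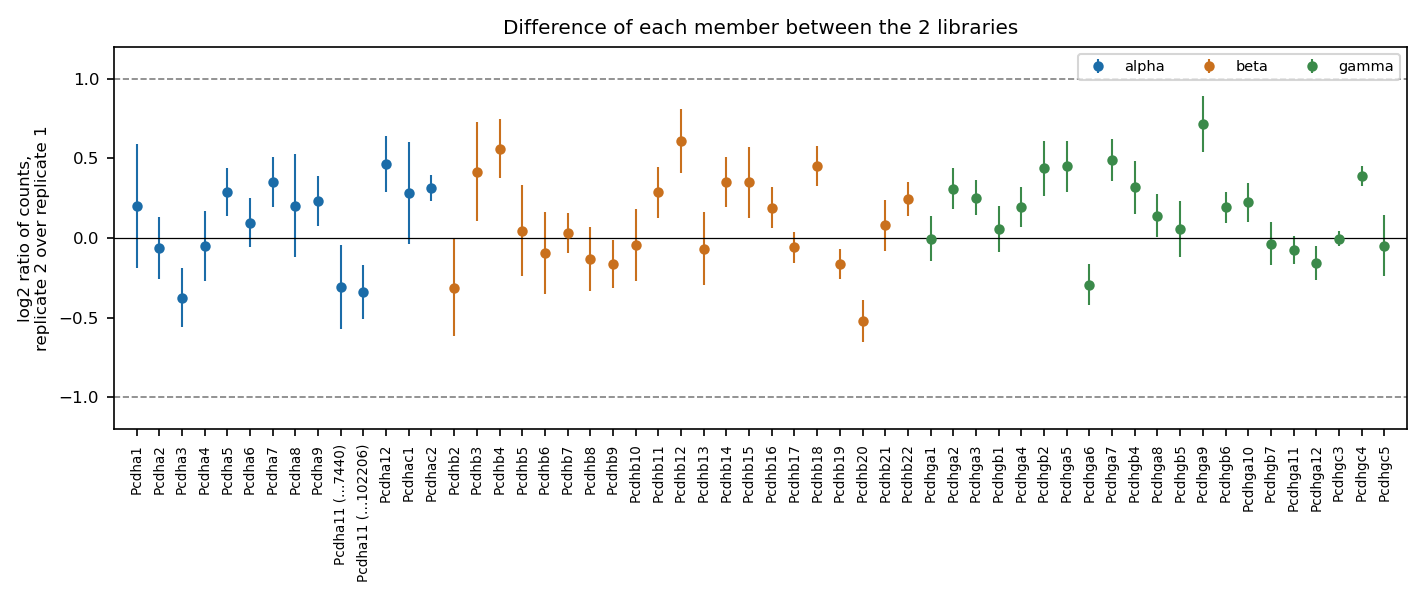
Log2 ratio of counts, replicate 2 over replicate 1, for the 56 members tested in order along the clusters, with 95% intervals from counting error and posterior SD as bars, and 2-fold as dashed lines. All members lie within 2-fold, between -0.52 and 0.71.

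The highest members did not move alike. In counts, Pcdhgc3 had a log2 ratio of -0.004 (SE 0.0241, adjusted p = 0.872 by the exact binomial test), while Pcdhgc4 had 0.39 (SE 0.0319, adjusted p = 2.41e-79) and Pcdhac2 0.31 (SE 0.0415, adjusted p = 1.22e-16). In coding TPM the ratios were 0.14 for Pcdhgc3, 0.30 for Pcdhgc4 and 0.47 for Pcdhac2. Pcdhgc3 and Pcdhgc4 were thus closer in that unit, where the effective length of Pcdhgc4 was 3597 and 4250 nt. The libraries also differed in tissue markers. Summed levels of 4 meningeal fibroblast markers were 132 and 484 coding TPM, with 3 of 4 called higher in replicate 2. Those of 4 diencephalic markers were 13.3 and 28.4, again with 3 of 4 called higher. Among all genes tested, 10.4% were called in either direction. Choroid plexus markers summed to 735 and 474, most of it Ttr (713 and 447), while Otx2 (11.2 and 13.9) and Aqp1 (9.97 and 12.5) differed the other way. Oligodendrocyte precursor markers summed to 210 and 181, with Pdgfra (34.6 and 41.6) in the other direction. In each of the choroid plexus and precursor lists 0 of 4 were called. At any fold with an adjusted p under 0.05, 1 choroid plexus marker was higher and 1 lower in replicate 2. Of the precursor markers, 1 was higher and 3 lower at that threshold, where 32.2% of all genes were higher and 33.2% lower. Serotonergic markers were low in both, with sums of 1.70 and 3.04 coding TPM and Fev at 0 reads. Slc6a4 was at 1.255 and 2.951 coding TPM, and the 1 called lower, Tph2, had 25 and 6 reads. Whether the members' differences have a part in common with these was not tested. Neuron markers summed to 5261 and 5160 coding TPM and radial glia markers to 1939 and 1919, with 0 of 4 called in each. At any fold with an adjusted p under 0.05, all 4 neuron markers were lower in replicate 2. Of the radial glia markers, 2 were higher and 1 lower (Pax6 18.5 and 31.6, Fabp7 1290 and 1131 coding TPM). The forebrain markers named above moved in both directions. Their log2 ratios in counts were -0.84 for Emx1, -0.34 for Lhx2, 0.07 for Tbr1, 0.36 for Dlx2, 0.52 for Dlx1 and 0.59 for Emx2.

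Genes within the clusters that are not members held few reads. On the same strand there were 6 in the alpha span (205 and 284 reads in all), 2 in the beta span (14 and 1) and 3 in the gamma span (235 and 366). Pcdhgb8, a gamma B gene annotated as a polymorphic pseudogene, had 154.5 and 303 reads, at 1.62 and 2.91 coding TPM. Gm36858, an unprocessed pseudogene between the first exons of Pcdha7 and Pcdha8, had 85 and 118 reads. On the opposite strand, 5 genes of the gamma span held 292 and 285 reads. Whether the counting used strand is not given in the sources used here, so reads of a gene and of its antisense partner may not be told apart.

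Of the 6 genes on the same strand in the alpha span, 3 join an alpha variable exon to the gamma constant exons, and were singled out after their values were seen. The first exon of Gm37388 (338 nt, 36975941 to 36976278) lies inside the variable exon of Pcdha7 and ends at the same base, and its second exon begins at the first gamma constant exon. Gm42416 does the same from Pcdha4 and Gm37013 from Pcdha6. Of 329 windows of 101 nt in Gm37388, 90 occur in no member, namely windows that run over the join.

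Gm37388 was assigned 21.3 reads in replicate 1 (posterior SD 4.13) and 63.3 in replicate 2 (posterior SD 4.70). Its log2 ratio was 1.27 (SE 0.459, adjusted p = 0.000375 by the exact binomial test). With an annotated length of 429 nt, Gm37388 was at 5.39 and 16.4 coding TPM, where Pcdha7 was at 6.72 and 9.53. Gm42416 was assigned 4.13 and 0 reads, with posterior means of 35.9 ± 27.6 and 20.5 ± 20.0 (posterior SD), and Gm37013 had 0 in both. The tables analysed here give no reads by splice junction, so the join itself was not tested.

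Genes known to act on the clusters were all present. Of 21 chromatin and transcription regulators, 21 were at 1 coding TPM or more in both libraries, with a median of 42.7 coding TPM. The highest were the cohesin loader subunit Mau2 (94.7 and 92.1 coding TPM), the cohesin subunit Rad21 (79.8 and 89.1) and the cohesin subunit Stag2 (74.0 and 90.2). Ctcf, whose product binds the promoters and enhancers of the clusters, was at 38.3 and 50.6. The DNA methyltransferase gene Dnmt3b, known to methylate the alternate promoters in the early embryo, was lowest at 1.92 and 3.77. By the binomial rule above, 0 of the 21 were called between the libraries, against 10.4% of all genes. At any fold, 11 were higher and 2 lower in replicate 2 with an adjusted p under 0.05. Over all genes tested, 32.2% were higher and 33.2% lower at that threshold.

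Partners of the proteins in the membrane and cytoplasm were also present, 20 of 20, with a median of 94.8 coding TPM. Marcks, encoding a membrane-bound actin regulator, was highest at 430 and 518, followed by Abi2 (291 and 324) and Nckap1 (149 and 171), which encode subunits of the WAVE actin-regulating complex. The receptor tyrosine kinase gene Ret was lowest at 4.80 and 7.17. All 6 genes of the shedding and intramembrane cleavage of protocadherins were present, with a median of 56.3 coding TPM. Among them the gamma-secretase subunits Psenen (95.7 and 71.1), Aph1a (59.4 and 87.1) and Ncstn (60.0 and 70.3) were highest and the sheddase gene Adam10 (18.5 and 21.0) lowest. In both lists 0 genes were called, against 10.4% of all genes and 2.78% of those averaging 100 counts or more. At any fold, 10 partners were higher and 6 lower in replicate 2 with an adjusted p under 0.05. Of the cleavage genes, 1 was higher and 2 lower at that threshold. The shares of all genes tested were 32.2% higher and 33.2% lower.

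The 12 non-clustered protocadherins, single genes elsewhere in the genome with their own full coding regions, gave a scale for these levels. All 12 were at 1 coding TPM or more in both libraries, with a median of 54.1 coding TPM, above 55 of the 57 clustered members. Pcdh10 (102 and 118 coding TPM), Pcdh8 (83.7 and 125) and Pcdh9 (91.7 and 96.5) were highest and Pcdh12 lowest (4.36 and 5.04). Pcdhgc3 and Pcdhgc4 lay at the level of Pcdh10. The 12 genes summed to 599 and 768 coding TPM, against 692 and 825 for the 57 clustered members. Here too 0 of 12 were called between the libraries, against 10.4% of all genes. At any fold, 8 were higher and 1 lower in replicate 2 with an adjusted p under 0.05. Over all genes tested, 32.2% were higher and 33.2% lower at that threshold.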

How the data were processed

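Gene and transcript quantifications of 2 total RNA-seq libraries were used as the authors deposited them, on mm10 with GENCODE M4 per the notes deposited beside them. Which programs aligned and quantified the reads is not given in the sources used here. The deposited expected counts and posterior mean counts are estimated counts that can be fractional, and the posterior SD of a count and the interval bounds of TPM are deposited scores of uncertainty. Deposited TPM and FPKM are per length and per library, and the deposited isoform percent is a transcript's share of its gene's TPM, per the file headers.

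Symbols came from GENCODE M21 (same assembly), matched for 42462 of 43346 genes. Unmatched genes held 0.150 and 0.138% of counts. TPM was multiplied by 7.38 and 4.54 so that protein-coding genes summed to 1000000. Expected counts were rounded, genes averaging 10 counts or more were scaled by TMM (edgeR 4.0.16, R 4.3.3) and tested by an exact binomial test (scipy 1.17.1) with Benjamini-Hochberg adjustment, and ratios had 0.5 reads added. DESeq2 1.42.0 gave alternative size factors.

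Named in full were the C-type genes, the 3 highest and 2 lowest of each other group, members with 0 reads and the 3 largest ratios, with the 3 highest and the lowest of each list and other genes of the same strand within the clusters at 100 or more mean counts. The members and lists were chosen with earlier results of these data known. Other filters, scalings, units and single libraries were tried as alternatives. No sequence is printed. The binomial test takes no account of variation between animals. An item of the marker lists is not reported here.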

Additional observations from a re-analysis of the deposited data

How the results depend on the processing

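Of 39 alternatives that kept both libraries, over 10 results, 25 left the value unchanged or moved it within a set limit. That limit was the SD between the libraries, or 1.5 times for a count of members. For the median log2 ratio it was the median SE of the members' ratios. On TPM as deposited, 32 members in place of 56 were at 1 or more in both libraries. Counted in expected counts, the alpha, beta and gamma clusters held 15.24, 19.58 and 65.17% of the members' total. In posterior mean counts they held 15.22, 19.59 and 65.19%. With the other genes of the same strand within the clusters added, they held 15.18, 20.51 and 64.31% of coding TPM. The order of the clusters was gamma, beta, alpha in all of these. The effective number of members was 18.75 in expected counts and 33.29 by the exponential of the Shannon entropy, a measure that weights low members more. Scaled to library totals, the median log2 ratio of members was 0.3689, with that of all genes at 0.200, so that the difference between both was 0.169 as under TMM. At a 1.5-fold threshold, 2 members were called, Pcdhga9 and Pcdhb12, with 19.8% of all genes. The count of members called stayed at 0 under the other 6 alternatives tried for it. Leaving out either library says nothing of stability here, since with 2 libraries the mean can only move by less than 1 SD. With 2 libraries of 1 group, no difference between members was tested across animals.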
